A study of Mus musculus with 12 samples.

Results

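The genes described here set and remove methyl groups on DNA and RNA: the DNA methyltransferases Dnmt1, Dnmt3a and Dnmt3b, the methyltransferase partner Uhrf1, the TET dioxygenases Tet1, Tet2 and Tet3, and the RNA demethylases Alkbh5 and Fto of the AlkB family. They were taken by gene symbol and are 9 of the 56350 genes in the count table. All 9 passed the filter on low counts and were among the 16484 genes tested. RNAseq was done on MPC2 cells, a conditionally immortalized mesenchymal line of mouse that is 1 clone, in 12 libraries. Undifferentiated MSCs were grown at 33 °C, and osteocytes were made by moving the cells to 37 °C for 3 weeks in medium with 4 mM beta-glycerophosphate and 50 µg/mL ascorbic acid. Cells of each type received 50 µM FG-4592 (Roxadustat), an inhibitor of the HIF prolyl hydroxylases, or its DMSO vehicle for 48 hours, with 3 libraries in each of the 4 conditions. Temperature, medium and time in culture changed together with differentiation and cannot be told apart from it. The labels do not say that replicates were separate cultures, so p-values measure the spread between these libraries, which may be technical.

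Methylation of cytosine in CpG pairs is copied after DNA replication by DNMT1, which UHRF1 brings to hemimethylated DNA, whereas DNMT3A and DNMT3B add methyl groups to unmethylated sites. The TET enzymes oxidize methylcytosine as the first step of its removal, and ALKBH5 and FTO take the methyl group from N6-methyladenosine (m6A) in RNA. The TET and AlkB enzymes need iron, oxygen and 2-oxoglutarate, as do the prolyl hydroxylases that mark HIF for degradation and that FG-4592 inhibits. DNA or RNA methylation itself was not measured here, and every value below is an mRNA level.

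Library totals ranged from 52829185 to 68108470 gene counts. Of 13 reference HIF target genes, 11 were upregulated by FG-4592 in MSCs and 13 in osteocytes, with median log2 fold changes of 3.31 and 3.70. Of all genes tested, 17.6% in MSCs and 21.9% in osteocytes were upregulated. The largest of these changes were those of the adenylate kinase gene Ak4, at 8.94 in MSCs and 8.33 in osteocytes, and of Ankrd37, which shares exonic bases with another gene, at 5.79 and 7.26. Their vehicle means were low, at 0.318 and 0.361 CPM for Ak4 and 0.235 and 0.174 CPM for Ankrd37. The size of these changes therefore rests on few vehicle counts. Among 6 osteocyte markers, Sost had no counts in any library, and Mepe and Pdpn had at most 2. Phex had 52 to 70 counts in MSC vehicle libraries and 2817 to 4181 in osteocyte vehicle libraries, and the summed osteocyte list moved from 1.69 to 3.13 CPM to 61.4 to 76.7 CPM. With FG-4592 this sum was 6.06 to 7.00 CPM in osteocytes, whereas Fgf23 of the same list went the other way, with 0 to 5 counts in their vehicle libraries and 79 to 125 counts with FG-4592. All 6 adipocyte markers were higher in osteocytes than in MSCs under vehicle, as were 26% of all genes tested. Their sums were 899.7 to 916 CPM in MSCs and 3735 to 4543 CPM in osteocytes. Summed chondrocyte markers moved from 108 to 128 CPM in osteocyte vehicle libraries to 367 to 445 CPM with FG-4592. Of 6 osteoblast markers 4 fell with FG-4592 in MSCs and 5 in osteocytes, against 20.4% and 22% of all genes tested. The part of these shifts in the differences between groups below was not tested. Summed blood, endothelial and skeletal muscle markers stayed at or under 3.65, 2.64 and 0.455 CPM. In bulk RNA, fewer cells of a type and less RNA per cell cannot be told apart.

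Levels are given as CPM, counts scaled to the TMM-adjusted size of the library, and are compared between genes only as RPKM, which also divides by gene length. Gene length is that of all exonic bases, and the order of genes below holds for this length only. Fto has 13031 such bases and a longest coding transcript of 4707, and Alkbh5 has 5987 and 5730. With the longest transcript as the length, Fto would stand above Alkbh5 under vehicle in both cell types. In MSC vehicle libraries Alkbh5 had the highest level, 23.3 ± 0.828 RPKM (SD, n = 3), followed by Fto at 20.8 ± 0.316 and Uhrf1 at 15.5 ± 0.751. Dnmt1 stood at 6.62 ± 0.129 RPKM, Tet3 at 3.29 ± 0.0709, Dnmt3a at 2.27 ± 0.176 and Tet2 at 1.37 ± 0.0397. Tet1 and Dnmt3b were lowest, at 0.578 ± 0.0242 and 0.303 ± 0.0514 RPKM. No neighbours in this order had overlapping values, and the order was the same in MSCs with FG-4592. With all exonic bases as the length, osteocytes under vehicle differed in 1 place, since Dnmt3a (4.29 ± 0.231 RPKM) came before Tet3 (3.73 ± 0.444). The libraries of this pair overlapped, as did those of Alkbh5 (23.4 ± 1.02) and Fto (21.4 ± 0.953). In osteocytes with FG-4592 the place of Uhrf1 had changed most: at 3.56 ± 0.867 RPKM its mean lay below that of Dnmt1 (4.38 ± 0.290), and its libraries overlapped those of Dnmt1, Tet3 (3.69 ± 0.110) and Dnmt3a (3.18 ± 0.134). Dnmt3b rested on 81 to 140 counts per library, and every other gene on at least 509.

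**Figure D1:**
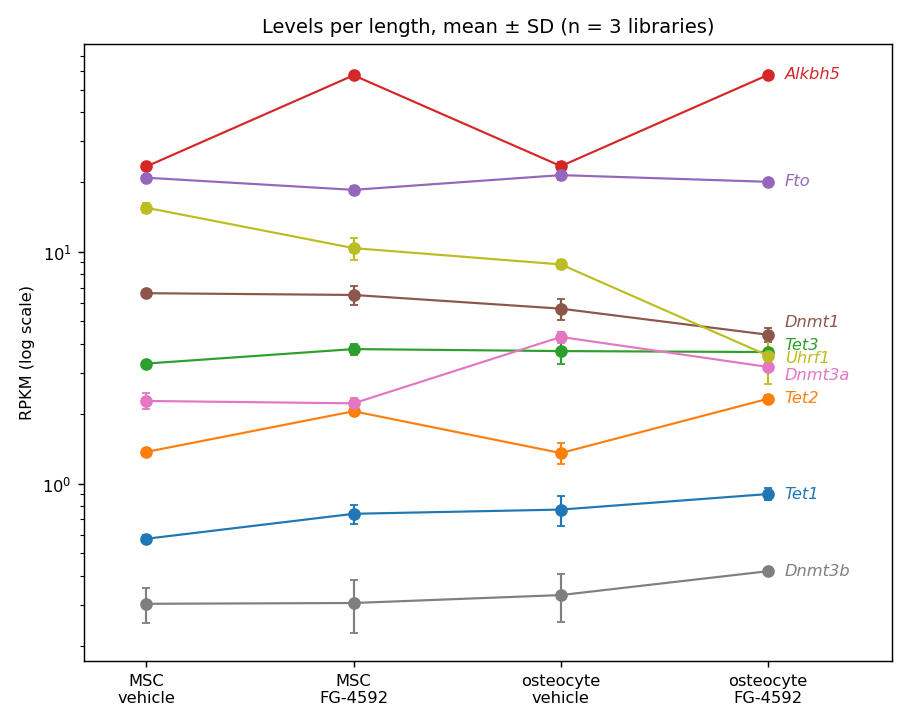
Mean level of each gene in RPKM (log axis) in the 4 conditions, with error bars of 1 SD over 3 libraries; the lines only join points of 1 gene. With all exonic bases as gene length, Alkbh5 leads in every condition, and Uhrf1 drops from 15.5 RPKM in MSC vehicle to 3.56 RPKM in osteocytes with FG-4592.

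FG-4592 raised Alkbh5 and Tet2 and lowered Uhrf1 in both cell types, and lowered Dnmt1 and Dnmt3a in osteocytes. In MSCs, 4 of the 9 genes were upregulated at an FDR under 0.05 (Alkbh5, Tet1, Tet2 and Tet3), against 17.6% of all genes tested, and 2 were downregulated (Fto and Uhrf1), against 20.4%. In osteocytes, 2 were upregulated (Alkbh5 and Tet2), against 21.9% of all genes, and 3 were downregulated (Dnmt1, Dnmt3a and Uhrf1), against 22%. With the added limit of more than 1 log2 unit, Alkbh5 alone rose in each cell type, where 4.12% of all genes in MSCs and 6.25% in osteocytes did so. Uhrf1 alone fell by that much, in osteocytes, as did 4.26% of all genes. Osteocytes against MSCs under vehicle gave 3 higher genes (Dnmt3a, Tet1 and Tet3), against 26% of all genes, and 2 lower (Dnmt1 and Uhrf1), against 24.9%. With FG-4592 in both cell types, 4 were higher in osteocytes (Dnmt3a, Fto, Tet1 and Tet2), against 30.5%, and 2 were lower (Dnmt1 and Uhrf1), against 25.3%, with Uhrf1 past 1 log2 unit as were 5.64% of all genes. The higher calls of Fto, Tet1 and Tet2 in that comparison were lost in 13 of 15, 9 of 16 and 11 of 15 other settings. When the FG-4592 responses themselves were compared, 0 of the 9 genes responded more positively in osteocytes by edgeR and by DESeq2, against 13.3% of all genes, and 0 of the 9 had a positive difference at an unadjusted p under 0.05. Dnmt1, Dnmt3a and Uhrf1 responded more negatively, 3 genes against 11% of all genes. The comparisons share libraries and are therefore not independent of one another.

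**Figure D2:**
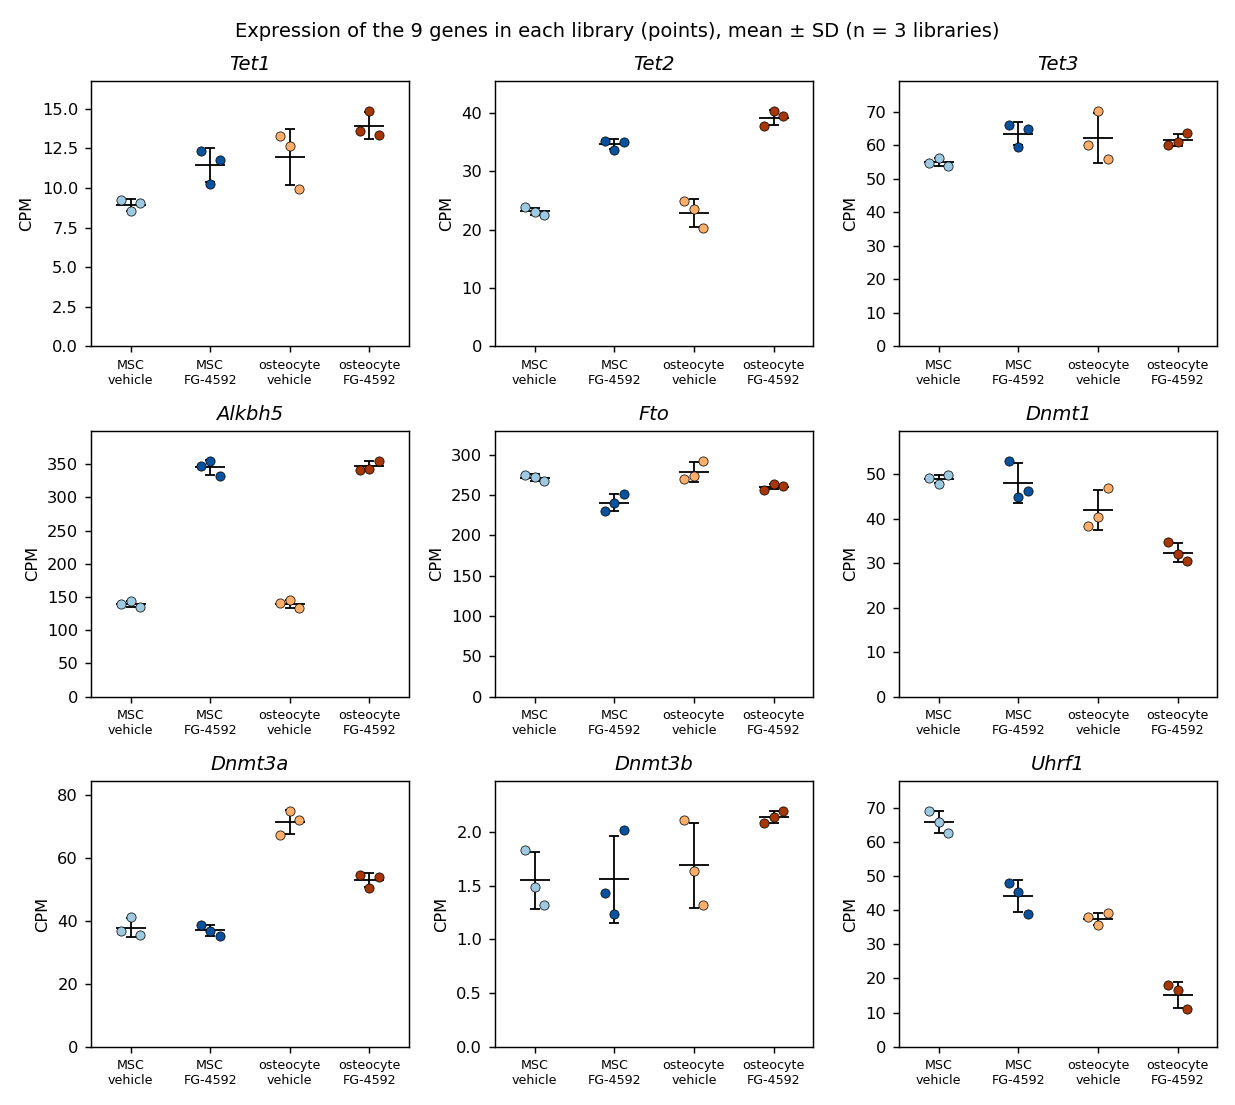
CPM of each of the 9 genes in every library (points), by condition, with the mean (bar) and SD of 3 libraries; each panel has its own axis from 0. Alkbh5 and Tet2 are higher with FG-4592 in both cell types without overlap, and Uhrf1 steps down through the conditions from 65.9 to 15.2 CPM.

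Uhrf1 (chr17:56303321-56323486, plus strand, mm10), the gene of the protein that recognizes hemimethylated CpG, was lower with FG-4592 and lower in osteocytes. Its MSC vehicle libraries had 69.2, 65.7 and 62.8 CPM, and those with FG-4592 had 48.0, 45.5 and 38.9 CPM. Osteocyte vehicle libraries had 37.9, 35.6 and 39.1 CPM, and those with FG-4592 had 18.0, 16.5 and 11.0 CPM. Vehicle and FG-4592 libraries did not overlap in either cell type, and the 3 osteocyte libraries with FG-4592 were the lowest of all 12. FG-4592 lowered Uhrf1 in MSCs to 0.670 of vehicle (95% interval 0.557 to 0.804, FDR 0.00146), a log2 fold change of -0.58 ± 0.12 (SE). In osteocytes it lowered it to 0.405 of vehicle (0.334 to 0.490, FDR 5.16e-07), a log2 fold change of -1.31 ± 0.13. The fall was larger in osteocytes, by -0.73 ± 0.18 on the log2 scale (FDR 0.0071). Osteocytes had 0.570 of the MSC level under vehicle (0.474 to 0.685, FDR 4.83e-05) and 0.344 of it with FG-4592 (0.284 to 0.417, FDR 4.55e-08). A processed pseudogene, Gm5648, matches 1590 bases of Uhrf1 at 98% identity or more and had at most 5 counts in any library.

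Dnmt1 (chr9:20907209-20959888, minus strand) encodes the maintenance methyltransferase. MSC vehicle libraries had 49.0, 47.8 and 49.7 CPM, and MSC libraries with FG-4592 had 53.0, 44.7 and 46.3 CPM, overlapping them on both sides. In osteocytes the vehicle libraries had 38.4, 40.4 and 46.8 CPM, and osteocyte libraries with FG-4592 had 34.6, 31.9 and 30.4 CPM, all below vehicle. Dnmt1 therefore fell with FG-4592 in osteocytes, to 0.772 of vehicle (0.685 to 0.870, log2 fold change -0.37 ± 0.081, FDR 0.00128). No change was called in MSCs, where the ratio was 0.982 (0.873 to 1.11, FDR 0.841). The responses differed by -0.35 ± 0.11 (FDR 0.0355), a call that was lost without MSC FG-4592 replicate 1 (FDR 0.0997), osteocyte vehicle replicate 3 (FDR 0.0888), osteocyte FG-4592 replicate 2 (FDR 0.0595) or replicate 3 (FDR 0.0884). Osteocytes were lower than MSCs under vehicle, at 0.858 of their level (0.762 to 0.966, FDR 0.0306). That call was lost on leaving out any of the 3 MSC vehicle libraries (FDR 0.107, 0.0931 and 0.150 without replicates 1, 2 and 3) or osteocyte vehicle replicate 1 (FDR 0.239) or 2 (FDR 0.150). With FG-4592, osteocytes had 0.674 of the MSC level (0.598 to 0.759, FDR 1.64e-05).

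Both maintenance genes are active when DNA is copied, so the replication genes were set beside them. Of 22 genes for DNA replication and cell cycling, 2 rose and 11 fell with FG-4592 in MSCs (median log2 fold change -0.31, with -0.04 over all genes tested, of which 17.6% rose and 20.4% fell), and 1 rose and 19 fell in osteocytes (median -0.57, with 0.00 over all genes, of which 21.9% rose and 22% fell). Top2a, the mitotic DNA topoisomerase, fell by 0.69 in MSCs and fell by 1.43 in osteocytes on the log2 scale, and cyclin Ccna2 had -0.57 and -1.30, whereas cyclin Ccne2 rose by 1.05 in MSCs and by 0.67 in osteocytes. All 3 of these genes share exonic bases with another gene, so their counts can include reads of their neighbours. Osteocytes were lower than MSCs for 21 of the 22 genes both under vehicle (median -0.64, with 24.9% of all genes lower) and with FG-4592 (median -1.01, with 25.3% lower), among them the proliferation marker Mki67 (-1.09 and -1.84), the helicase subunit Mcm5 (-0.74 and -1.61) and the sliding clamp Pcna (-0.73 and -0.80). The summed level of the list was 1875 to 1945 CPM in MSC vehicle libraries, 1646 to 1841 in MSCs with FG-4592, 985 to 1149 in osteocyte vehicle libraries and 556 to 725 in osteocytes with FG-4592. Uhrf1 lay near the low end of these genes: in the FG-4592 comparisons, 3 of the 22 in MSCs and 1 in osteocytes had a lower log2 fold change. Dnmt1 lay above most of them, with 19 and 17 of the 22 lower. How far the number of cycling cells accounts for the levels of either gene was not tested.

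**Figure D3:**
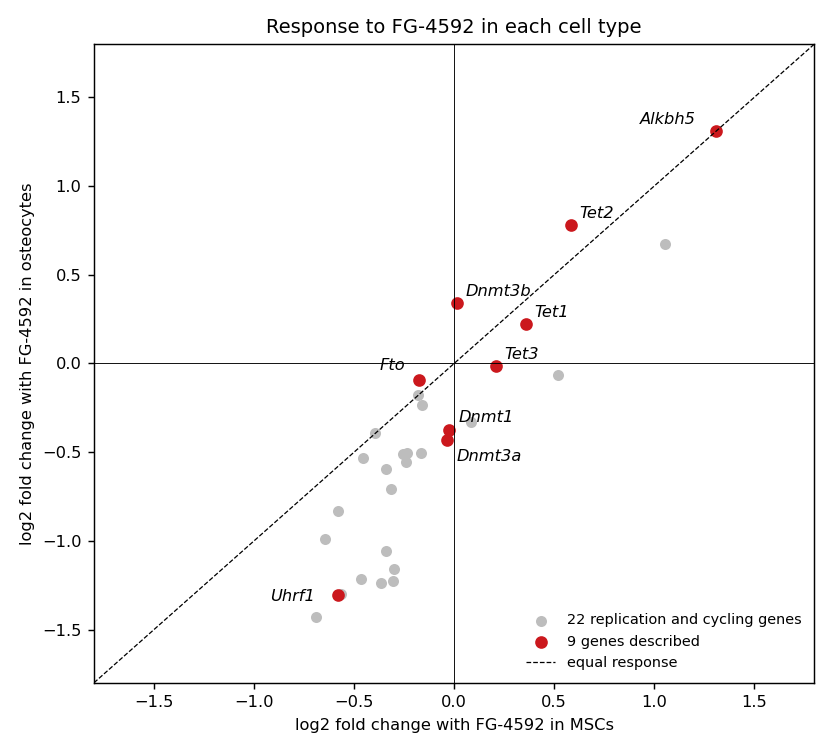
Log2 fold change with FG-4592 in MSCs (x axis) and in osteocytes (y axis) for the 9 genes (red) and 22 replication and cycling genes (grey), with a dashed line where both are equal. Alkbh5 lies on the line at 1.31 in each cell type, and Uhrf1 lies among the lowest replication genes at -0.58 and -1.31.

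Promoter windows show which short motifs lie next to the start sites of the 9 genes. RefSeq (GRCm38.p6) gives windows of 300 bases, 250 before and 50 after each start site, for all 9 genes, 14 windows in all. The core of the hypoxia response element was searched as ACGTG or GCGTG and an E2F-type motif, known from replication genes, as TTTCGCGC or TTTGGCGC, on both strands, and the motifs were chosen with the expression results known. A hypoxia core was in 43.8% of all 32851 promoters and in 59.9% of the 13933 promoters of tested genes, so its presence is common. The E2F-type letters were in 0.813% of all promoters and in 1.42% of those of tested genes. Uhrf1 and Dnmt1 were the only members with the E2F-type letters, each in 1 of its windows. In the window of Uhrf1 at chr17:56304063-56304362 (plus strand) they lie at -185 to -178 from the start site, beside ACGTG at -125 to -121 and GCGTG at -247 to -243, -237 to -233 and -21 to -17, and the other Uhrf1 window has none of these letters. In the window of Dnmt1 at chr9:20952574-20952873 (minus strand) they lie at -219 to -212 and at 34 to 41, with GCGTG at -76 to -72, and the other Dnmt1 windows have none. This window lies downstream of the Dnmt1 window at chr9:20952930-20953229, so its matches come after the start site of that window. Of the 3 windows of Dnmt3a, 1 (chr12:3891494-3891793, plus strand) holds ACGTG at -79 to -75 and, on the other strand, at -80 to -76. Tet2 and Alkbh5 have 1 hypoxia core each, printed further on, and no letters of either motif were in the windows of Tet1, Tet3, Fto and Dnmt3b. The windows of Uhrf1 and Dnmt1 are printed 5′ to 3′ on the strand of the gene, with the motifs in capitals, as the reverse complement where they lie on the other strand. A match describes the letters and does not show that a factor binds there.
Uhrf1: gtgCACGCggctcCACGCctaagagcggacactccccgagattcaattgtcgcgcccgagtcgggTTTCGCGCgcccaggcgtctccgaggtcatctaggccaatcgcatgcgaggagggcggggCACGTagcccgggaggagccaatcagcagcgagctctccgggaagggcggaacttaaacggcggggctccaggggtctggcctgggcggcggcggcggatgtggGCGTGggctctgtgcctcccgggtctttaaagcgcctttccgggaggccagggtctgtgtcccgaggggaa
Dnmt1: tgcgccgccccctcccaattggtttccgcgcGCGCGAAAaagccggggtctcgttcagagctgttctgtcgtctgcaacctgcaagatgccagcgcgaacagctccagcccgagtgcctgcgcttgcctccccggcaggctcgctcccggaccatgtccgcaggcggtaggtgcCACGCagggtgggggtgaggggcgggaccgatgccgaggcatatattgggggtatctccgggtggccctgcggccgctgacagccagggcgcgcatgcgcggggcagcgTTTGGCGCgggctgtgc

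Dnmt3a (chr12:3806007-3914443, plus strand), a de novo methyltransferase gene, was higher in osteocytes, and fell with FG-4592 there. MSC vehicle libraries had 36.7, 41.1 and 35.6 CPM, and MSC libraries with FG-4592 had 38.8, 36.9 and 35.1 CPM. Osteocyte vehicle libraries had 67.2, 74.9 and 72.0 CPM, and osteocyte libraries with FG-4592 had 54.6, 50.4 and 53.8 CPM. All osteocyte libraries lay above all MSC libraries, with those given FG-4592 between. Under vehicle the osteocyte level was 1.89 times that of MSCs (1.71 to 2.08, log2 fold change 0.92 ± 0.067, FDR 8.73e-09), and with FG-4592 it was 1.43 times (1.30 to 1.58, FDR 5.07e-06). FG-4592 lowered Dnmt3a to 0.742 of vehicle in osteocytes (0.674 to 0.818, log2 fold change -0.43 ± 0.066, FDR 5.15e-05). No change was called in MSCs, at a ratio of 0.977 (0.885 to 1.08, FDR 0.734), and the responses differed by -0.40 ± 0.094 on the log2 scale (FDR 0.00537). The gene shares 133 exonic bases with Dnmt3aos on the opposite strand, which had at most 1 count in any library.

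Dnmt3b (chr2:153649450-153687730, plus strand), the other de novo methyltransferase gene, had the lowest level of the 9 genes and the widest intervals. It had 1.83, 1.49 and 1.32 CPM in MSC vehicle libraries and 1.43, 1.24 and 2.01 CPM with FG-4592. The osteocyte vehicle libraries had 2.11, 1.64 and 1.32 CPM, and those with FG-4592 had 2.08, 2.14 and 2.20 CPM. The osteocyte libraries with FG-4592 lay above all MSC libraries, but no comparison passed the test, with FDR from 0.131 to 0.978. Without MSC FG-4592 replicate 3, the osteocyte level under FG-4592 was higher than in MSCs (FDR 0.0415). The interval for FG-4592 in osteocytes ran from 0.880 to 1.82 of vehicle, and that in MSCs from 0.698 to 1.46. Of the RPKM summed over the de novo genes, Dnmt3a held 88.2% ± 1.95 (SD, n = 3) in MSCs under vehicle and 87.9% ± 3.19 with FG-4592, and 92.8% ± 1.88 and 88.4% ± 0.569 in osteocytes. In osteocytes its share was 4.46 points lower with FG-4592, with no overlap (two-sided exact permutation p = 0.1, the smallest that 3 against 3 libraries can give).

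Tet2 (chr3:133463679-133545139, minus strand), one of the methylcytosine dioxygenase genes, was upregulated by FG-4592 in both cell types. It had 23.8, 23.0 and 22.5 CPM in MSC vehicle libraries and 35.1, 33.6 and 35.1 CPM with FG-4592. In osteocytes the libraries had 24.8, 23.5 and 20.2 CPM under vehicle and 37.7, 40.4 and 39.4 CPM with FG-4592. Every library with FG-4592 lay above every vehicle library of either cell type. The level rose 1.50-fold in MSCs (1.34 to 1.67, log2 fold change 0.58 ± 0.073, FDR 8.74e-06) and 1.71-fold in osteocytes (1.54 to 1.91, log2 fold change 0.78 ± 0.073, FDR 2.56e-07). The responses were not called different (0.20, interval -0.02 to 0.41, FDR 0.192). Under vehicle the cell types had a ratio of 0.989 (0.887 to 1.10, FDR 0.875). With FG-4592 osteocytes were 1.13 times as high as MSCs (FDR 0.0448), a call that 11 of 15 other settings did not keep, with FDR up to 0.145. Tet2 shares 43 exonic bases with Gm42567 on the opposite strand, which had at most 5 counts in any library.

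The RefSeq window of Tet2 (chr3:133544341-133544640, minus strand) holds 57 CpG pairs in its 300 bases, more than the window of any other member, and ACGTG on the other strand at -16 to -12 from the start site. The sequence is shown because Tet2 is the TET gene that moved in both cell types, with the match in capitals as its reverse complement.
Tet2: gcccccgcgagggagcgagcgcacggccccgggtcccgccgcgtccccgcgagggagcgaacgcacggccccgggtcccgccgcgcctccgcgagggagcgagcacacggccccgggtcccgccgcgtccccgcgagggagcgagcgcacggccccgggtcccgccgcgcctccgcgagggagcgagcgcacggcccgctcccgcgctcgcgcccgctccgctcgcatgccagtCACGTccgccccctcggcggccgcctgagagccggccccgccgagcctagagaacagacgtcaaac

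Tet1 and Tet3 moved less. Tet1 (chr10:62804570-62908996, minus strand) had 9.25, 8.52 and 9.04 CPM in MSC vehicle libraries, 12.3, 10.2 and 11.8 CPM in MSCs with FG-4592, 13.3, 12.6 and 9.94 CPM in osteocyte vehicle libraries and 13.6, 14.9 and 13.3 CPM in osteocytes with FG-4592. The MSC vehicle libraries were the lowest, and all comparisons of FG-4592 with vehicle were free of overlap. Tet1 rose 1.28-fold with FG-4592 in MSCs (1.09 to 1.51, FDR 0.019), and no change was called in osteocytes, where the ratio was 1.17 (0.991 to 1.37, FDR 0.12). The MSC call was lost with library size alone as the scaling (FDR 0.0662) and without vehicle replicate 2 (FDR 0.0517) or FG-4592 replicate 1 (FDR 0.0775) or 3 (FDR 0.056). Under vehicle, Tet1 was 1.34 times as high in osteocytes as in MSCs (1.13 to 1.58, FDR 0.00538), and with FG-4592 it was 1.22 times as high (1.03 to 1.43, FDR 0.0396), of which 9 of 16 other settings did not keep the latter, with FDR up to 0.167. Stretches of 107 to 124 bases of Tet1 recur in 6 other genes, among them Krit1, which had 2658 to 3794 counts, and only uniquely mapped reads were counted.

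Tet3 (chr6:83362373-83459084, minus strand) had 54.9, 56.2 and 53.8 CPM in MSC vehicle libraries and 66.0, 59.5 and 64.8 CPM in MSCs with FG-4592. In osteocytes, vehicle libraries had 60.1, 70.4 and 56.1 CPM, and osteocyte libraries with FG-4592 had 60.2, 61.0 and 63.7 CPM, within the range of vehicle. Tet3 rose 1.15-fold in MSCs (1.04 to 1.28, FDR 0.0302), a call that was lost with upper-quartile scaling (FDR 0.0573), with library size alone (FDR 0.197) and without vehicle replicate 3 (FDR 0.0505) or FG-4592 replicate 1 (FDR 0.104) or 3 (FDR 0.0889). In osteocytes the ratio was 0.991 (0.892 to 1.10, FDR 0.901). The responses were not called different (-0.22, FDR 0.128), except without osteocyte vehicle replicate 3 (FDR 0.0345). Under vehicle osteocytes were 1.13 times as high as MSCs (FDR 0.0473), with overlapping libraries, and 8 of 16 other settings did not keep that call, among them leaving out MSC vehicle replicate 1 (FDR 0.0549) or 3 (FDR 0.0592) or osteocyte vehicle replicate 2 (FDR 0.141).

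Tet2 took a larger share of the TET mRNA pool with FG-4592, and Tet3 a smaller one. The level of Tet3 itself was called higher in MSCs and was not called changed in osteocytes. Of the RPKM summed over the TET genes, Tet2 held 26.1% ± 0.449 (SD, n = 3) in MSCs under vehicle and 31.1% ± 0.791 with FG-4592, and 23.2% ± 1.59 and 33.6% ± 0.502 in osteocytes. Tet3 went from 62.8% ± 0.847 to 57.7% ± 0.281 in MSCs and from 63.7% ± 2.59 to 53.4% ± 1.18 in osteocytes. Neither pair of groups overlapped in either cell type, and each difference had a two-sided exact permutation p of 0.1, the smallest possible here. The share of Tet1 moved little with FG-4592, from 11.0% to 11.2% in MSCs (p = 0.6, exact permutation test) and from 13.2% to 13.0% in osteocytes (p = 0.8, exact permutation test). With the longest transcript as the length in place of all exonic bases, the Tet2 share was 30.8% and 36.3% in MSCs and 27.6% and 39.2% in osteocytes, so the level of a share depends on the length used. The direction for Tet2 could not change, because length is a constant factor and Tet2 had the largest fold of the TET genes in both cell types.

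**Figure D4:**
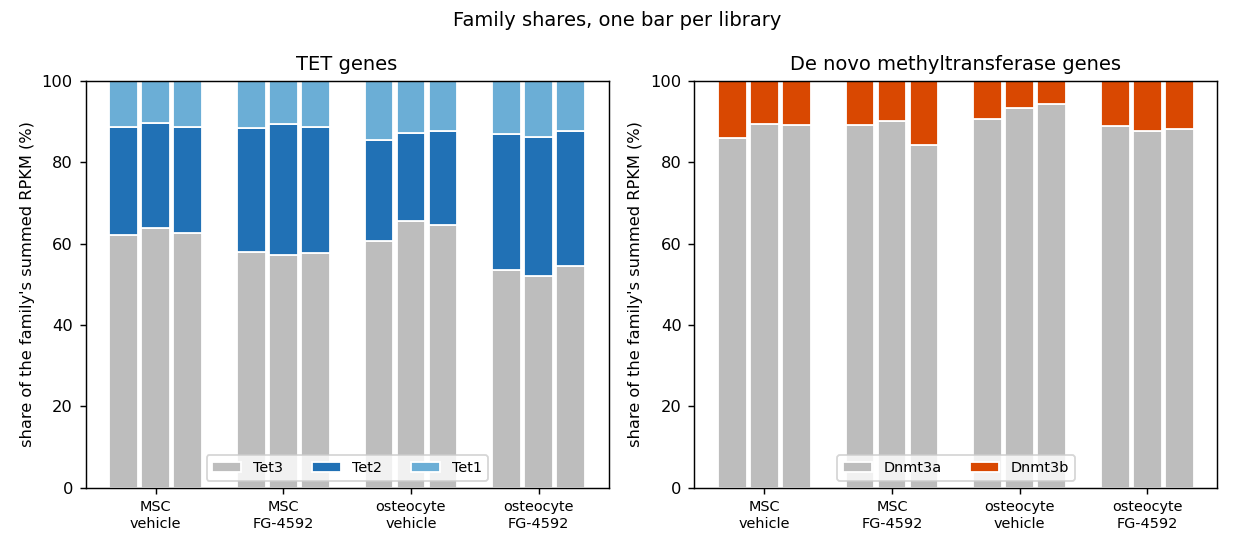
Share of the summed RPKM of the TET genes (left) and of the de novo methyltransferase genes (right), in percent, with 1 bar per library in replicate order within each condition. The Tet2 segment widens with FG-4592 from 26.1% to 31.1% in MSCs and from 23.2% to 33.6% in osteocytes.

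Alkbh5 (chr11:60536381-60558512, plus strand), an m6A demethylase gene, rose with FG-4592 by 1.31 log2 units in each cell type and had the largest response of the 9 genes in MSCs. MSC vehicle libraries had 139.6, 144 and 135 CPM, and MSC libraries with FG-4592 had 348, 355 and 333 CPM. Osteocyte vehicle libraries had 140.2, 146 and 134 CPM, and osteocyte libraries with FG-4592 had 342, 343 and 355 CPM. The lowest library with FG-4592 was far above the highest vehicle library in both cell types, and the cell types overlapped under either treatment. The level rose 2.47-fold in MSCs (2.30 to 2.66, log2 fold change 1.31 ± 0.049, FDR 3.86e-12) and 2.48-fold in osteocytes (2.30 to 2.66, log2 fold change 1.31 ± 0.049, FDR 2.81e-12). The difference between the responses was 0.00, with an interval from -0.14 to 0.15 on the log2 scale (FDR 0.996). Osteocytes had 1.00 times the MSC level under vehicle (0.935 to 1.08, FDR 0.947) and 1.00 times with FG-4592 (0.936 to 1.08, FDR 0.927).

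The RefSeq window of Alkbh5 (chr11:60537433-60537732, plus strand) holds GCGTG once, at -62 to -58 from the start site, and no E2F-type letters. It is shown for the member with the largest rise, with the match in capitals. The last 30 bases of the window are in no Gencode transcript of the gene, which starts upstream of it, so the start site differs between the annotations.
Alkbh5: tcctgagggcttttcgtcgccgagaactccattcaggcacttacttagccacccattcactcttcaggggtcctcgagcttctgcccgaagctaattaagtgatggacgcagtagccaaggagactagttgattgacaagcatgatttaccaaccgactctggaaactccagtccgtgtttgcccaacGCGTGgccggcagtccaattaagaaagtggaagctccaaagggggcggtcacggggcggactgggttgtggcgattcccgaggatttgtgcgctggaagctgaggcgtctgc

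Fto (chr8:91313525-91668439, plus strand), the other m6A demethylase gene, moved little and in the other direction. MSC vehicle libraries had 275, 272 and 267 CPM, and MSC libraries with FG-4592 had 231, 241 and 251 CPM, all below vehicle. Osteocyte vehicle libraries had 269.8, 273 and 293 CPM, and osteocyte libraries with FG-4592 had 257, 264 and 262 CPM, again without overlap. Fto fell to 0.887 of vehicle in MSCs (0.827 to 0.950, log2 fold change -0.17 ± 0.047, FDR 0.00771), a call that was lost without vehicle replicate 1 (FDR 0.0704) or 2 (FDR 0.0604). In osteocytes the ratio was 0.936 (0.873 to 1.00, FDR 0.115). That comparison passed with upper-quartile scaling (FDR 0.0355), with library size alone (FDR 0.00292) and without osteocyte vehicle replicate 1 (FDR 0.0328). The responses were not called different (0.08, interval -0.06 to 0.22, FDR 0.445). With FG-4592 osteocytes were 1.08 times as high as MSCs (1.01 to 1.16, FDR 0.0481), which 13 of 15 other settings did not keep, with FDR up to 0.263. Under vehicle the ratio was 1.03 (0.958 to 1.10, FDR 0.538). Fto shares 144 exonic bases with 4831440D22Rik and 304 with Gm45427, both on the opposite strand and with at most 2 counts in any library.

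**Figure D5:**
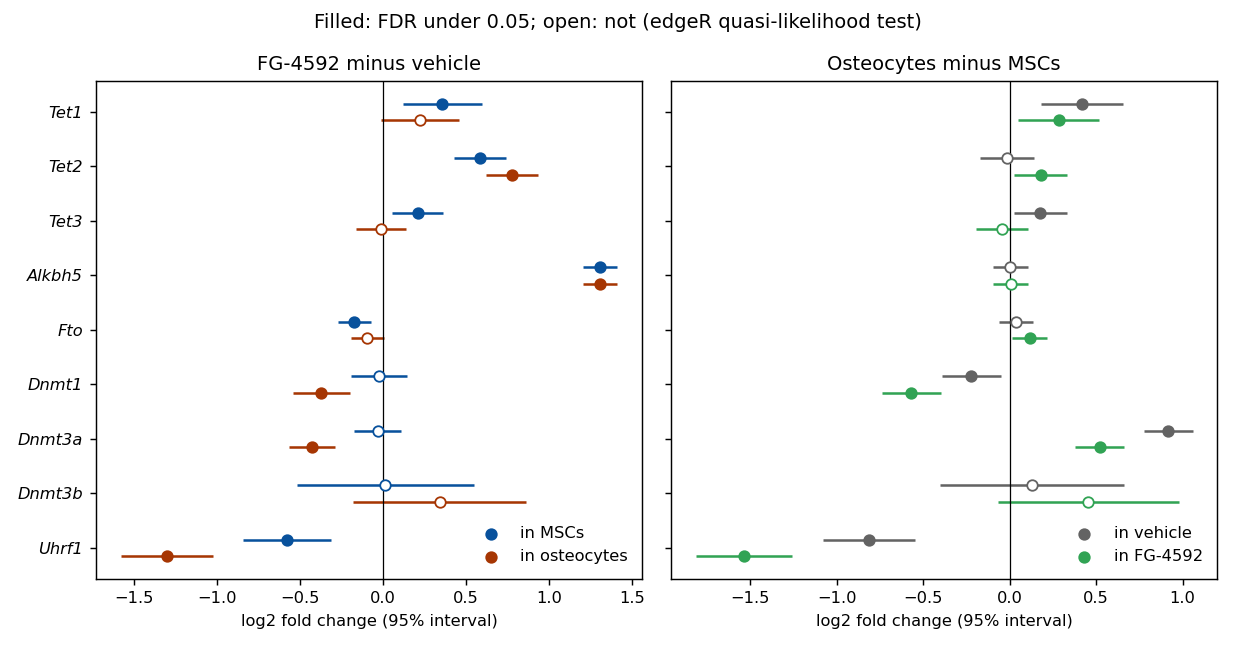
Log2 fold change of each gene with its 95% interval, for FG-4592 minus vehicle (left, by cell type) and osteocytes minus MSCs (right, by treatment); filled points passed an FDR of 0.05 in edgeR. Alkbh5 has 1.31 in both cell types and no difference between them, while Uhrf1 is below 0 in all 4 comparisons.

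Means of the log2 CPM spanned at least 1 unit over the 4 conditions for Alkbh5 (1.31) and Uhrf1 (2.15) alone, and the 3 most alike protein-coding genes were found for both among 11205 candidates, by the root mean square difference of centred log2 CPM over the 12 libraries. For Alkbh5 these were Rnf145 (0.10), Npepps (0.11) and Ccdc115 (0.11), and Npepps had 162 and 376 CPM in MSCs without and with FG-4592 and 142 and 345 CPM in osteocytes. For Uhrf1 they were Ska3 (0.091), Cenpn (0.11) and Kif15 (0.12), known for roles at the kinetochore and spindle. Ska3 had 12.1 and 7.70 CPM in MSCs without and with FG-4592 and 6.87 and 2.78 CPM in osteocytes.

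Of 10 tested partner genes of the DNA methyltransferases, 1 rose and 5 fell with FG-4592 in MSCs (median log2 fold change -0.14), where 17.6% of all genes rose and 20.4% fell. In osteocytes 2 rose and 6 fell (median -0.33), where 21.9% of all genes rose and 22% fell. Cdca7, a partner of the remodeller HELLS, fell by 1.33 in MSCs (14.9 to 5.91 CPM) and fell by 1.31 in osteocytes. Hells itself fell by 0.45 in MSCs and fell by 1.38 in osteocytes (22.7 to 8.75 CPM), and Pclaf, which binds the sliding clamp, had log2 fold changes of -0.80 in MSCs and -1.79 in osteocytes (25.7 to 7.44 CPM). None rose and 8 fell in osteocytes against MSCs under vehicle (median -0.52, with 26% of all genes higher and 24.9% lower), and 1 rose and 8 fell with FG-4592 (median -0.43, with 30.5% and 25.3%). Several of these genes are themselves linked to DNA replication.

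Genes of the MBD family and other genes linked to the reading of methylated CpG formed a list of 11, in which the products of Mbd3, Mbd5 and Mbd6 are not known as binders of methylated CpG in mammals. With FG-4592 in MSCs 2 rose and 2 fell (median 0.03), where 17.6% of all genes rose and 20.4% fell, and in osteocytes 8 rose and 3 fell (median 0.29), where 21.9% rose and 22% fell. The response was more positive in osteocytes than in MSCs for 8 of the 11 and more negative for 2, against 13.3% and 11% of all genes. Mbd2, a methyl-CpG binding protein gene, rose by 0.62 in osteocytes, from 124 to 192 CPM, and had 0.03 in MSCs (FDR 0.729). Mbd4, which encodes a glycosylase for mismatches at CpG, fell by 1.00 in MSCs and fell by 0.67 in osteocytes, and Mbd5 fell by 0.27 in MSCs and rose by 0.22 in osteocytes. Mbd4 and Mbd5 share exonic bases with other genes.

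Of 16 tested genes that work with or after the TET enzymes, 6 rose and 5 fell with FG-4592 in MSCs (median 0.11), where 17.6% of all genes rose and 20.4% fell. In osteocytes 6 rose and 7 fell (median -0.11), where 21.9% of all genes rose and 22% fell. Ogt, whose product modifies proteins with O-GlcNAc and binds TET proteins, rose by 0.76 in MSCs, from 166 to 282 CPM, and by 0.70 in osteocytes. Cxxc5, which shares exonic bases with another gene, rose by 0.27 in MSCs and by 1.55 in osteocytes, from 20.4 to 59.5 CPM. The glycosylase gene Neil3 fell by 0.73 in MSCs and fell by 1.71 in osteocytes.

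The writers and readers of m6A and the other AlkB homologues were set beside Alkbh5 and Fto, with 17.6% of all genes higher and 20.4% lower in MSCs and 21.9% and 22% in osteocytes as background. Of 12 m6A writer genes, 2 rose and 2 fell with FG-4592 in MSCs (median -0.04) and 0 rose and 3 fell in osteocytes (median 0.01). Mettl14, a subunit of the m6A methyltransferase, rose by 0.53 in MSCs and Pcif1, which methylates adenosine next to the cap, fell by 0.37 there, with 0.14 and 0.07 in osteocytes, where neither was called. In osteocytes Mettl16 fell by 0.39 and Mettl5 fell by 0.35, with -0.04 and -0.24 in MSCs, where neither was called. Among 12 m6A readers, 2 rose and 2 fell in MSCs (median 0.02) and 2 rose and 5 fell in osteocytes (median -0.12). Hnrnpa2b1 fell by 0.75 in osteocytes, from 765 to 456 CPM, with -0.15 in MSCs (FDR 0.0615), Igf2bp3 fell by 0.26 in MSCs and fell by 0.95 in osteocytes, and Igf2bp2 rose by 0.31 in MSCs and by 0.65 in osteocytes. Of the 7 other AlkB homologues, 0 rose and 0 fell in MSCs (median -0.08), and in osteocytes Alkbh6 alone rose, by 0.70 (10.0 to 16.2 CPM, FDR 0.00027), with a median of -0.16. Pcif1, Mettl5, Igf2bp3 and Alkbh6 share exonic bases with other genes.

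Of 18 genes that make, recycle or use the methyl donor S-adenosylmethionine or that make or handle 2-oxoglutarate and related metabolites, 2 rose and 7 fell with FG-4592 in MSCs (median -0.10), where 17.6% of all genes rose and 20.4% fell. In osteocytes 1 rose and 9 fell (median -0.21), where 21.9% of all genes rose and 22% fell. Nnmt, whose product uses S-adenosylmethionine, fell by 1.04 in MSCs (62.1 to 30.2 CPM) and fell by 0.87 in osteocytes (46.5 to 25.4 CPM). The mitochondrial isocitrate dehydrogenase gene Idh2, whose product makes 2-oxoglutarate, fell by 0.82 in MSCs (102 to 57.4 CPM) and fell by 0.72 in osteocytes (87.6 to 53.3 CPM).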

How the data were processed

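The deposited table holds raw counts per gene. The authors mapped paired reads of 100 bases with STAR (2.7.2a) to mm10 and counted the uniquely mapped ones with featureCounts (Subread 1.6.2) on Gencode M22, without strand and with each read counted for every gene it overlaps, so overlapping genes share reads. The filter on low counts asked for over 10 in 3 or more libraries. Scaling was by TMM, and all 12 libraries were fitted in 1 model with edgeR 4.0.16 (quasi-likelihood F-test, R 4.3.3), with Benjamini-Hochberg adjustment (FDR) over all genes tested and a threshold of 0.05. Folds are fitted values. SEs are the log2 fold change divided by the square root of F, and intervals are 95%. The test was also run on simulated counts with few changed genes and the same dispersion for every gene. That setting is simpler than these data, so the run does not check the scaling. DESeq2 1.42.0 was an alternative. Family shares of RPKM were compared with exact permutation tests. The members and lists were chosen with earlier results of these data known. Besides the 9 genes, a list contributed by name up to 2 genes per cell type, those with the largest FG-4592 response past the threshold at a mean of at least 1 CPM, and Mki67, Mcm5 and Pcna were added. Replicates differed by more than sampling noise (chi-square per gene 9.92 to 37.8). Near-identical stretches (98% over 100 bases) came from blastn 2.17.0 against Gencode M21. Positions are those of the deposited table.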

Additional observations from a re-analysis of the deposited data

Results flagged for a closer look

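Results are listed here because the FG-4592 response differed between osteocytes and MSCs in the edgeR test of that difference (log2 units, osteocytes minus MSCs). They cover the 9 genes and the list genes named with values in the text, and other genes of the same lists also passed that test. Of the 9 genes these were Dnmt1 (-0.35, FDR 0.0355), Dnmt3a (-0.40, FDR 0.00537) and Uhrf1 (-0.73, FDR 0.0071). Of the named genes of the MBD family and writer partners they were Mbd5 (0.48), Mbd2 (0.60), Pclaf (-0.98) and Hells (-0.92). Of the named genes that work with the TET enzymes they were Neil3 (-0.98) and Cxxc5 (1.27). The named m6A genes Mettl14 (-0.40), Pcif1 (0.44), Mettl16 (-0.35), Igf2bp2 (0.34), Igf2bp3 (-0.69) and Hnrnpa2b1 (-0.60) also differed. The remaining ones were the cycling genes Ccne2 (-0.38), Top2a (-0.74), Ccna2 (-0.73), Mki67 (-0.75) and Mcm5 (-0.87) and the HIF target Ankrd37 (1.46). FDR over all these genes ran up to 0.0497, that of Ccne2.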

How the results depend on the processing

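No fold change of the 9 genes that had been called turned its direction in any alternative run. Alkbh5 and Uhrf1 kept their calls with FG-4592 in both cell types, as did Dnmt1 in osteocytes, in all 16 alternatives, and Tet2, and Dnmt3a in osteocytes, in the 15 that tested them. Counts of called genes moved by more than 1.5 times in these cases. Genes upregulated in MSCs were 4, but 2 with library size alone and 2 to 4 on leaving out 1 library. Those downregulated in MSCs were 2, but 1 without genes sharing exonic bases, which takes Tet2, Fto and Dnmt3a out of the test, and 1 to 2 on leaving out 1 library. Upregulated genes in osteocytes were 2, and 1 without genes sharing exonic bases. Genes lower in osteocytes than in MSCs under vehicle were 2, but 1 without genes sharing exonic bases, where Dnmt1 was tested and lost its call, and 1 to 2 on leaving out 1 library. Without genes sharing exonic bases, 10639 genes were tested. Of these, 1920 were lower in MSCs and 2179 higher in osteocytes with FG-4592, and 2370 were lower in osteocytes than in MSCs under vehicle. Genes higher in osteocytes than in MSCs with FG-4592 were 4, but 1 with RLE factors, upper-quartile factors, library size alone, no filter, DESeq2 or without genes sharing exonic bases, 2 with a replicate block, and 1 to 3 on leaving out 1 library. Over all genes, 5021 of 16484 were higher there in the main run. They were 4861, 4769 and 4549 with RLE factors, upper-quartile factors and library size alone, and 4900 with a replicate block. With no filter they were 4984 of 31742, with DESeq2 4990 of 20520, and without genes sharing exonic bases 3107 of 10639. Smaller moves took genes lower in osteocytes with FG-4592 from 3 to between 2 and 4, genes higher in osteocytes under vehicle from 3 to 2, and more negative responses in osteocytes from 3 to 2. The cause was not tested, apart from the genes taken out. Deviations of same-numbered libraries correlated at -0.053 to 0.054, so the numbers do not pair the libraries, and the replicate block changed no call except those of Tet2 (FDR 0.0527) and Fto (FDR 0.0501) between cell types with FG-4592 and of Tet3 between them under vehicle (FDR 0.0663). With library size alone, the split of all called genes with FG-4592 moved from 2904 higher and 3369 lower to 2260 and 4654 in MSCs, and from 3609 and 3619 to 2806 and 4800 in osteocytes. Counting depth limits Dnmt3b most, and 3 libraries per group leave shares with no exact p below 0.1.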
